A study of Sus scrofa with 4 samples.

Results

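The iron and 2-oxoglutarate dependent dioxygenases are enzymes that use an iron atom held outside haem, molecular oxygen and 2-oxoglutarate to hydroxylate or demethylate proteins, nucleic acids and lipids. They were taken as every row of the authors' deposited gene table for the NO donor and control libraries whose symbol belongs to the KDM2 to KDM8, TET, EGLN, P4HA, P4HTM, P3H, PLOD, ALKBH, HIF1AN, JMJD, RIOX, PHF2, PHF8, OGFOD, PHYH, ASPH and TYW5 genes. This gave 54 genes of 14804 rows. FTO, which the rule also names, EGLN2, KDM4D, KDM4E and KDM5D were not analysed here. The rule uses gene symbols and no measured value, but it was set with earlier results of these data known.

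The cells were aortic valve interstitial cells from pigs in primary culture; such cells resemble fibroblasts and make the matrix of the valve. By the labels, 4 droplet single-cell RNA libraries were made, 1 per group, with about 2000 cells targeted in each. One group received detaNONOate, which releases NO, at 150 µM through 5 days of culture, and another received it for 3 days followed by 2 days of withdrawal. A further group received S-nitrosoglutathione at 200 µM, and the control was cultured for 5 days. All groups share the primary culture, and neither the number of animals nor the vehicle of the control is given in the labels. The comparison is of the detaNONOate library of 5 days, called the NO donor library, with the control; the other two libraries were not analysed here.

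In the catalytic cycle of these enzymes the iron binds oxygen, and NO can bind the same iron, which is why the class is of interest in cells exposed to NO. EGLN enzymes and HIF1AN hydroxylate the alpha subunits of HIF, the transcription factor of the hypoxia response. P4HA, P3H and PLOD enzymes hydroxylate prolines and lysines of collagen in the endoplasmic reticulum. The KDM and PHF enzymes remove methyl groups from histone lysines, TET enzymes oxidise 5-methylcytosine in DNA, and the ALKBH family acts on alkylated or methylated DNA, RNA and some proteins. The values here are transcript levels and carry no measure of enzyme activity.

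The table held 3 columns per library, with 7064703, 7151367 and 7073246 counts in the NO donor columns and 6486628, 7252735 and 8067661 in the control columns. How the 3 columns were made is not given in the sources used here, so they were taken as parts of 1 library, and no difference below has a replicate check or a test of the treatment. A level is the summed count of a library over its summed size factors, called a normalized count. A log2 ratio is the NO donor level over the control level, and its 95% interval covers counting error only. A gene was called higher or lower at a difference of at least 2-fold, which is 1 log2 unit. Scaling each library to its total count, in place of the authors' size factors, adds 0.60 to every log2 ratio, and the median over the 13943 measured genes is then 0.60 in place of 0.00. Markers of valve interstitial cells had counts for 10 of 10 genes in both libraries, but they summed to between 41537 and 43877 over the NO donor columns and to between 205897 and 209851 over the control columns. The sum is mostly VIM, COL1A2, COL1A1 and COL3A1; of the same list PDGFRB was at 328 in the NO donor library, against 319 in the control, and the other 9 genes were lower. Of the other cell type markers, 3 endothelial genes summed to 283 in the NO donor library, against 709 in the control, 3 leukocyte genes to 167 in the NO donor library, against 162 in the control, and 1 cardiomyocyte gene to 9.52 in the NO donor library, against 15.2 in the control; the other markers of those types, PTPRC, CDH5 and VWF among them, and all epithelial markers were not analysed here. Of the leukocyte genes, CD14 was at 151 in the NO donor library, against 160.1 in the control, AIF1 had 35 counts in the NO donor library, against 1 in the control, and CD68 had 24 in the NO donor library, against 4 in the control. The part of these shifts in the results was not tested. In summed counts of this kind, fewer cells of a type and less RNA per cell cannot be told apart.

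EGLN3, KDM3A, P4HA1, P4HA2 and PLOD2 are HIF target genes in human or mouse cells, so the 250 bases before their annotated starts are given as context for the values below. They were read from the RefSeq genome and annotation of Sscrofa11.1, and lie for EGLN3 at chr7:65805263-65805512 on the plus strand, KDM3A at chr3:58355001-58355250 on the minus strand, P4HA1 at chr14:75919122-75919371 on the minus strand, P4HA2 at chr2:134595445-134595694 on the minus strand, PLOD2 at chr13:86513168-86513417 on the minus strand. Capitals mark matches to ACGTG or GCGTG, the core of the hypoxia response element, on either strand, so that CACGT and CACGC are matches of the other strand; a CACGTG would hold 2 overlapping matches.
EGLN3: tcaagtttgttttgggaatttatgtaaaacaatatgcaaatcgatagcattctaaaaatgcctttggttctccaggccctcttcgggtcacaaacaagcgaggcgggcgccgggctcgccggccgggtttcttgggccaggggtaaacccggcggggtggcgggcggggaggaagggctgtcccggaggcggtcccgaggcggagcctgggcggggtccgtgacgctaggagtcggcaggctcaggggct
KDM3A: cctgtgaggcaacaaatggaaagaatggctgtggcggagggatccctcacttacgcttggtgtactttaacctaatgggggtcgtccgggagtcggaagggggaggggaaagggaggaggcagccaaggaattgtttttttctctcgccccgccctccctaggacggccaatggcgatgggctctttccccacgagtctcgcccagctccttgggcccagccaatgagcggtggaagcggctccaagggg
P4HA1: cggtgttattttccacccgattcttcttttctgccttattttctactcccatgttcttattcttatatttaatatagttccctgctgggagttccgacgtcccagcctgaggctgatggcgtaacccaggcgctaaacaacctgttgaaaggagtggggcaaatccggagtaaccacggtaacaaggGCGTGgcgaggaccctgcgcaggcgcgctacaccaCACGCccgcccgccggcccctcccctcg
P4HA2: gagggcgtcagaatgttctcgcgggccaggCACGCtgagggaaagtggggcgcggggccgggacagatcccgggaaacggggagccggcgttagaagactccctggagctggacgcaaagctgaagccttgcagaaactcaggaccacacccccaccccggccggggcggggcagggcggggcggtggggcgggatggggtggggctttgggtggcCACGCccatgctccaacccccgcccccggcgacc
PLOD2: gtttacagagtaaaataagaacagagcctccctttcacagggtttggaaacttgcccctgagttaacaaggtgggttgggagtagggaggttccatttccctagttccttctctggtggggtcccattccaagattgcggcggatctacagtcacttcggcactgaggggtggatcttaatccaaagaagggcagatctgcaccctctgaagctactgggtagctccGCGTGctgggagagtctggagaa
P4HA1 and P4HA2 held 2 matches each, PLOD2 held 1, and EGLN3 and KDM3A held 0. The 5 windows are not all those of the HIF-regulated members, and no relation between matches and direction can be read from them. The motif was found in 24 of the 54 members' windows, or 44.4%, against 42.3% of the windows of 20638 protein-coding genes. A match is a string of letters and not a shown binding site, and the annotated start of a gene may differ from the start used in these cells.

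Gene by gene, more dioxygenase transcripts lay above the control than below it, 32 of 54 at the authors' scaling, while their summed level was close to the control. All 54 members were measured, with mean normalized counts between 12.1 and 1170 (over the 6 columns), and their median log2 ratio was 0.49 (mean 0.29), against 0.00 over all measured genes. At total count scaling the median was 1.09 for the members, against 0.60 for all measured genes. By the 2-fold rule 10 members were higher, or 18.5%, against 14.5% of all measured genes, and 4 were lower, or 7.41%, against 20.2%. Members that were called either way made up 25.9%, below the 34.7% of all measured genes. At total count scaling 28 members were higher and 1 was lower, against 33.2% and 11.9% of all measured genes. The 3 NO donor columns lay above the 3 control columns in 30 members, or 55.6% against 36.7% of all measured genes, and below them in 15, or 27.8% against 36.3%. Separate columns in either direction were thus found in 83.3% of the members and in 73.0% of all measured genes, so separation alone sets few genes apart. Among the 37 members whose mean reached the median of measured genes, 91.7, the median log2 ratio was 0.32, against 0.04 over the 6972 genes at or above that mean, with 7 members at least 2-fold higher (18.9%, against 11.2%) and 4 at least 2-fold lower (10.8%, against 16.0%). The summed normalized count of the members was 12422 in the NO donor library, against 12699 in the control, at the authors' scaling. As a share of all counts, which follows total count scaling, they took 0.215% in the NO donor library, against 0.145% in the control. Of the members, 38 of 54 carry adjusted p-values below 0.05 in the authors' deposited table, against 51.1% of all rows with an adjusted p; since it was computed over the columns, it does not test the treatment.

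**Figure D1:**
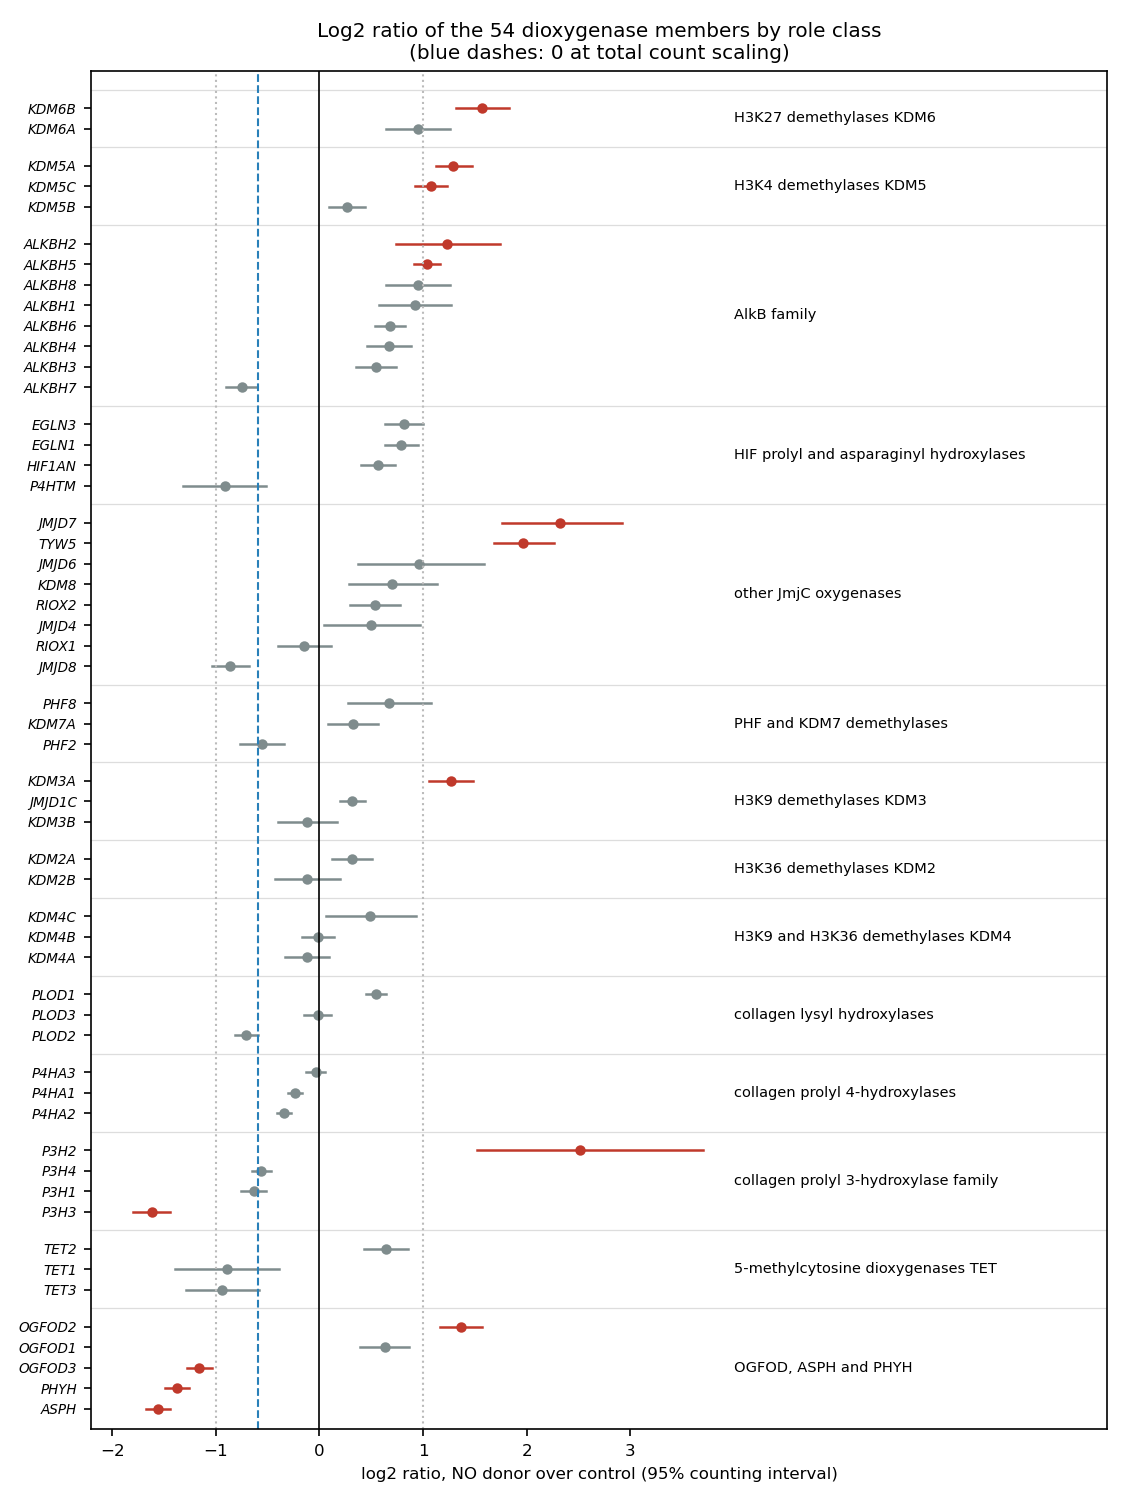
Log2 ratio of each of the 54 members, NO donor over control (x axis), grouped by role class, with the 95% counting interval as a line; red marks a difference of at least 2-fold, dotted lines 1 log2 unit, and blue dashes the place of 0 at total count scaling. The H3K27 and H3K4 demethylases, most of the AlkB family and 3 of the 4 HIF hydroxylases sit right of 0, while most collagen hydroxylases, ASPH, PHYH and OGFOD3 sit at or left of it.

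**Figure D2:**
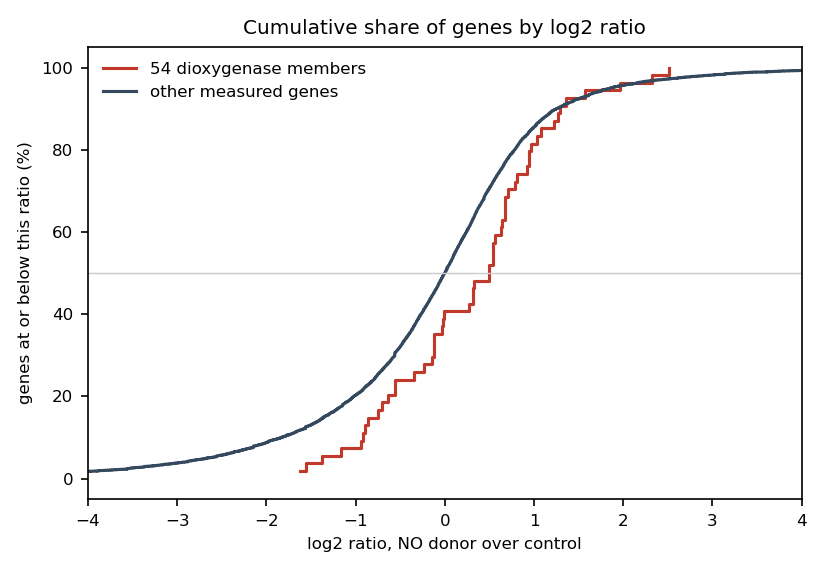
Cumulative percentage of genes (y axis) at or below each log2 ratio (x axis, shown from −4 to 4) for the 54 members and for the other 13889 measured genes. The members' curve reaches 50% at 0.49 and the other genes' at 0.00, and no member lies below −1.62.

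The oxygen-sensing hydroxylases were higher in the NO donor library by less than 2-fold at the authors' scaling. EGLN1, the main HIF prolyl hydroxylase, had normalized counts of 293, 297 and 312 in the NO donor columns and 187, 158 and 177 in the control columns, 1.73-fold higher (1.55 to 1.94). EGLN3, its strongly hypoxia-inducible paralog (chromosome 7, 65805513 to 65833536, exons and introns), had 241, 260.4 and 243 in the NO donor columns and 136, 148 and 139 in the control columns, 1.76-fold higher (1.55 to 1.99). HIF1AN, the HIF asparaginyl hydroxylase, had 261, 267 and 266 in the NO donor columns and 184, 152 and 198 in the control columns, a log2 ratio of 0.57 (0.40 to 0.73). In all 3 genes the columns of the libraries did not overlap, as in 73.0% of all measured genes. EGLN1 made up 54.8% (52.6 to 57.0) of the summed EGLN1 and EGLN3 counts in the NO donor library, against 55.2% (51.6 to 58.7) in the control, so the balance of the pair differed by less than the counting error. P4HTM, a prolyl hydroxylase of the endoplasmic reticulum membrane, went the other way, with a log2 ratio of −0.91 (−1.32 to −0.51) from 94 counts in the NO donor library, against 120 in the control. One control column of P4HTM stood apart, at 66.8 beside 40.4 and 37.8. At total count scaling its log2 ratio was −0.32, with overlapping columns.

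Around these enzymes, the HIF subunits and targets were mixed. HIF1A, the oxygen-regulated alpha subunit, had a log2 ratio of 0.76 (0.50 to 1.03), whereas its paralog EPAS1 had −0.78 (−1.15 to −0.41) and their partner ARNT had −0.84 (−1.25 to −0.43). VHL, the ligase subunit that recognises hydroxylated HIF, had 0.54. Of 14 measured genes of the HIF pathway list 1 was higher by the 2-fold rule, the coactivator EP300 at 2.54-fold, and 1 was lower, ARNT2 at 6.94-fold; the median was −0.35, or 0.25 at total count scaling. Of 35 measured HIF target genes, 6 of them dioxygenases, 8 passed the 2-fold rule upwards and 4 downwards. Their median was 0.48, or 1.08 at total count scaling. Of all measured genes 14.5% were higher and 20.2% lower at the authors' scaling, and 33.2% and 11.9% at total count scaling. At total count scaling 5 of the 14 pathway genes were higher and 1 lower, and 19 of the 35 targets were higher and 4 lower. Among the targets VEGFA, which drives vessel growth, and SLC2A3, a glucose transporter, were 13.8-fold and 12.4-fold higher at the authors' scaling. BHLHE40, a transcriptional repressor, was 3.44-fold lower. The members with known HIF regulation divided as well, with KDM3A, EGLN3 and EGLN1 above the control, at log2 ratios of 1.27, 0.81 and 0.79, and P4HA1, P4HA2 and PLOD2 below it, at −0.23, −0.34 and −0.71. At total count scaling these last values were 0.36, 0.25 and −0.11, so the direction of P4HA1 and P4HA2 depended on the scaling, while the distance between the gene groups did not.

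Collagen hydroxylase transcripts were mostly close to or below the control level, while those of the collagens themselves were lower by more. P4HA1, the catalytic subunit of the main prolyl 4-hydroxylase, had normalized counts of 994, 1035 and 1085 in the NO donor columns and 1188, 1260 and 1212 in the control columns. P4HA2, its second isoenzyme, had 1019, 1088 and 985 in the NO donor columns and 1309, 1323 and 1295 in the control columns. P4HA3 had 638, 617 and 612 in the NO donor columns and 631, 675 and 610.4 in the control columns, and these overlapped. The first pair of genes was thus lower in every NO donor column at the authors' scaling and higher in every one at total count scaling, and no P4HA gene was called at either. P4HA2 made up 38.3% (37.3 to 39.3) of the P4HA counts in the NO donor library, against 41.3% (40.2 to 42.4) in the control, and P4HA3 made up 23.1% (22.3 to 24.0) in the NO donor library, against 20.1% (19.3 to 21.0) in the control. These shares do not depend on the scaling. P4HB, the partner subunit of the enzyme, had a log2 ratio of −0.25, which became 0.34 at total count scaling.

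The lysyl hydroxylases, which prepare collagen for cross-linking, differed in their balance. PLOD1, which hydroxylates lysines of the collagen helix (chromosome 6, 71987938 to 72019712), had 744, 711 and 691 in the NO donor columns and 483, 449 and 533 in the control columns, a log2 ratio of 0.54 (0.45 to 0.64). PLOD2, which acts on the telopeptides that form stable cross-links (chromosome 13, 86402673 to 86513167), had 341, 350 and 371 in the NO donor columns and 573, 552 and 604 in the control columns, a log2 ratio of −0.71 (−0.82 to −0.60). PLOD3, which also glycosylates hydroxylysine, had 316, 327 and 338 in the NO donor columns and 315, 335 and 340.3 in the control columns, which overlapped. PLOD1 and PLOD2 therefore lay on opposite sides of the control at the authors' scaling. PLOD1 made up 51.2% (49.9 to 52.6) of the family's counts in the NO donor library, against 35.1% (33.5 to 36.7) in the control. The share of PLOD2 was 25.3% (24.2 to 26.6) in the NO donor library, against 41.3% (39.6 to 42.9) in the control, and that of PLOD3 was 23.4% in the NO donor library, against 23.7% in the control. PLOD2 overlapped between the libraries at total count scaling, with a log2 ratio of −0.11 (−0.22 to −0.0016), but the shares are unaffected by scaling.

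In the prolyl 3-hydroxylase family the abundant members were all lower at the authors' scaling. P3H3 (chromosome 5, 63871506 to 63885294) had 111, 98.2 and 93.7 in the NO donor columns and 322, 312 and 299 in the control columns, 3.07-fold lower (2.71 to 3.49). It was the only member lower by the 2-fold rule at total count scaling too, with a log2 ratio of −1.02. P3H1, which forms a complex with CRTAP, had a log2 ratio of −0.64 (−0.75 to −0.52), and P3H4, a family member without a shown catalytic role, had −0.56 (−0.65 to −0.47); at total count scaling they stood at −0.04 and 0.04, with overlapping columns. CRTAP itself was 2.89-fold lower. P3H2, which acts on basement membrane collagen, was 5.72-fold higher (2.86 to 13.0) on only 76 counts in the NO donor library, against 9 in the control. Of the 17 collagen chains measured, 13 were lower by the 2-fold rule and 0 higher; the median was −2.03, and 10 were lower at total count scaling. COL1A1 and COL3A1, the main fibrillar chains, were 20.1-fold and 7.12-fold lower. The partners of the hydroxylases, such as the collagen chaperones FKBP10 and SERPINH1, lay between, with a median of −0.89 at the authors' scaling. Of the 9 partners, 4 were called lower and 1 higher, against 20.2% and 14.5% of all measured genes. Scaling to total counts left 0 of the 9 lower and 2 higher, around a median of −0.29. The shares of all measured genes were then 11.9% lower and 33.2% higher.

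**Figure D3:**
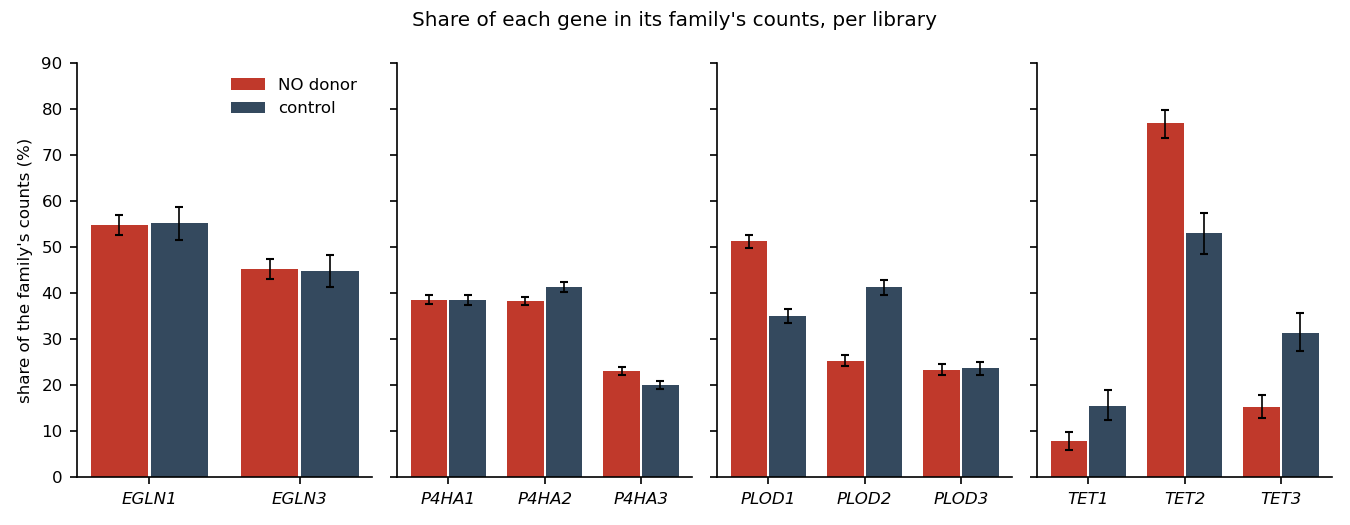
Share of each gene in the counts of its own family (y axis, percent) in the NO donor library (red, left) and the control library (dark, right), with exact 95% counting intervals. The EGLN shares match within their intervals, whereas PLOD1 takes 51.2% in the NO donor library, against 35.1% in the control, and TET2 takes 76.9%, against 53.0% in the control.

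At the authors' scaling 2 of 3 KDM5, 1 of 2 KDM6 and 1 of 3 KDM3 histone demethylases were higher by the 2-fold rule. In the KDM2, KDM4, and PHF and KDM7 classes 0 were higher, and in all these classes 0 were lower. Of all measured genes 14.5% were higher and 20.2% lower. KDM6B, which removes methyl groups from H3K27 and is an inducible gene of inflammatory responses (chromosome 12, 53087072 to 53108949), had 196, 204 and 157 in the NO donor columns and 61.9, 55.9 and 69.1 in the control columns, 2.97-fold higher (2.49 to 3.55). Its paralog KDM6A, on the X chromosome, had a log2 ratio of 0.95 (0.64 to 1.26), just under the rule. Both H3K27 demethylases were thus above every control column, as were 36.7% of all measured genes. KDM5A, which acts on H3K4 (chromosome 5, 67628791 to 67716143), had 354, 339.9 and 329.6 in the NO donor columns and 137, 137 and 143 in the control columns, 2.45-fold higher (2.17 to 2.77). KDM5C (chromosome X, 45968812 to 46003215) had 339, 446 and 384 in the NO donor columns and 191, 182 and 183 in the control columns, 2.11-fold higher (1.90 to 2.34). The variance between its NO donor columns was 9.19 times the variance that counting gives, the largest of any member, so its interval is too narrow. Without the highest of these columns its log2 ratio was 0.97, under the 2-fold rule. KDM5B, the third measured H3K4 demethylase, had a log2 ratio of 0.27 (0.09 to 0.44) with overlapping columns, and its share of the family's counts was 22.1% (20.7 to 23.5) in the NO donor library, against 34.7% (32.0 to 37.4) in the control. KDM5C and KDM6A have close copies on the Y chromosome of mammals, and reads shared with such copies would make their single values uncertain.

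KDM3A, an H3K9 demethylase (chromosome 3, 58300109 to 58355000), had 227, 224 and 232 in the NO donor columns and 104, 93.5 and 88.6 in the control columns, 2.40-fold higher (2.08 to 2.79). Its relatives were nearer to the control, JMJD1C at a log2 ratio of 0.32 (0.19 to 0.44) and KDM3B at −0.12 (−0.40 to 0.17). KDM4A, KDM4B and KDM4C, which act on H3K9 and H3K36, had −0.12, −0.01 and 0.49, and the H3K36 demethylases KDM2A and KDM2B had 0.31 and −0.12. PHF8 and KDM7A had 0.67 and 0.33, whereas PHF2, a relative with H3K9 activity, had −0.55 (−0.77 to −0.34), a value of 0.04 at total count scaling. KDM2B, KDM3B, KDM4A and KDM4B also changed sign at that scaling. At the authors' scaling the opposing enzymes were lower in few cases, since 2 of 27 histone methyltransferases were lower by the 2-fold rule and 0 higher. Of all measured genes 20.2% were lower and 14.5% higher. The list median was −0.13, or 0.47 at total count scaling, where 5 of the 27 were higher and 0 lower. EZH2, the H3K27 methyltransferase that opposes KDM6B, was one of the 2, with a log2 ratio of −1.03 (−1.29 to −0.77). At total count scaling EZH2 was not called. It is named here after its value was seen. The list of demethylases that use FAD in place of iron, with their RCOR partners, had a median of 0.65 over 5 genes and 0 called. At total count scaling 4 of the 5 were higher. The values that follow are at the authors' scaling. KDM1A had 0.51, KDM1B 0.83 with overlapping columns, and RCOR2 −0.20.

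Among the 5-methylcytosine dioxygenases the most counted member was higher and the other 2 lower at the authors' scaling. TET2 (chromosome 8, 116413253 to 116546976) had 170.2, 170.4 and 156 in the NO donor columns and 121, 94.8 and 105 in the control columns, a log2 ratio of 0.64 (0.43 to 0.85). TET3 had 35.8, 39.8 and 23.0 in the NO donor columns and 67.3, 60.7 and 61.6 in the control columns, a log2 ratio of −0.94 (−1.29 to −0.59). TET1 had 13.8, 15.4 and 21.4 in the NO donor columns and 34.98, 34.0 and 25.9 in the control columns, a log2 ratio of −0.89 (−1.40 to −0.39). No column of either library crossed into the other for these genes at the authors' scaling, as in 73.0% of all measured genes. At total count scaling TET1 overlapped. TET3 then had a log2 ratio of −0.34 (−0.70 to 0.01) and TET1 −0.30 (−0.80 to 0.20), with intervals that reach 0. TET2 had 1.24 (1.02 to 1.45) at that scaling, past the 2-fold rule. TET2 made up 76.9% (73.8 to 79.8) of the TET counts in the NO donor library, against 53.0% (48.5 to 57.4) in the control. The share of TET3 was 15.3% (12.8 to 18.0) in the NO donor library, against 31.4% (27.4 to 35.7) in the control. On the methylating side, DNMT1, the maintenance DNA methyltransferase, was 3.68-fold lower and CXXC5, a zinc finger protein tied to TET2, 4.65-fold lower. Of 9 genes of the list of DNA methyltransferases and TET partners, 4 were lower and 1 was higher. Of all measured genes 20.2% were lower and 14.5% higher. At total count scaling 4 of the 9 were lower and 3 higher.

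At the authors' scaling the AlkB family lay above the control in 7 of its 8 measured members, as did 6974 of 13943 measured genes. By the 2-fold rule 2 of the 8 were higher, against 14.5% of all measured genes. At total count scaling 7 of the 8 were higher by that rule, against 33.2% of all measured genes. The columns did not overlap in any of the 8, as in 73.0% of all measured genes. ALKBH5, which removes N6-methyladenosine from RNA (chromosome 12, 60507662 to 60530239), had 521, 541 and 555 in the NO donor columns and 274, 279 and 238 in the control columns, 2.05-fold higher (1.88 to 2.25). Without the lowest control column its log2 ratio was 0.96, under the 2-fold rule. ALKBH2, a DNA alkylation repair enzyme, was 2.34-fold higher (1.66 to 3.35) on 152 counts in the NO donor library, against 44 in the control. ALKBH8 and ALKBH1, which act on transfer RNA, had log2 ratios of 0.95 and 0.92, and ALKBH6, ALKBH4 and ALKBH3 had 0.68, 0.67 and 0.54. ALKBH7, a mitochondrial member, was the exception at −0.75 (−0.90 to −0.60), lower in every column at either scaling. The writers and readers of N6-methyladenosine had a median of 0.42 over 16 genes, with 1 called higher and 0 lower. At total count scaling 8 of the 16 were higher and 0 lower. METTL14, a subunit of the methyltransferase, had 0.67 at the authors' scaling.

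The remaining oxygenases held both the largest positive and the largest negative differences after the prolyl 3-hydroxylases. TYW5, which hydroxylates the wybutosine base of transfer RNA (chromosome 15, 103555257 to 103578901), had 195, 197 and 178 in the NO donor columns and 45.7, 48.6 and 50.8 in the control columns, 3.92-fold higher (3.22 to 4.79). JMJD7, a lysyl hydroxylase of GTPases, was 4.99-fold higher (3.40 to 7.58) on 221 counts in the NO donor library, against 30 in the control, and its control columns ran from 5.38 to 19.4. OGFOD2 (chromosome 14, 29890003 to 29895405) had 280.1, 249 and 272 in the NO donor columns and 98.2, 113 and 100.5 in the control columns, 2.57-fold higher (2.24 to 2.96). In these 3 genes every NO donor column lay above every control column, as in 36.7% of all measured genes.

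ASPH, which hydroxylates EGF-like domains such as those of NOTCH proteins (chromosome 4, 71902891 to 72107047), had 239, 249.9 and 256 in the NO donor columns and 729, 782 and 688 in the control columns, 2.95-fold lower (2.72 to 3.20). PHYH, the peroxisomal enzyme that starts the breakdown of phytanic acid (chromosome 10, 48404298 to 48423978), had 263, 261 and 275 in the NO donor columns and 677, 695 and 694 in the control columns, 2.59-fold lower (2.39 to 2.80). OGFOD3 (chromosome 12, 677146 to 688195) had 255, 262 and 253 in the NO donor columns and 591, 579 and 554 in the control columns, 2.23-fold lower (2.06 to 2.43). All 3 stayed below every control column at total count scaling, with log2 ratios of −0.96, −0.78 and −0.56, under the 2-fold rule. OGFOD1, which hydroxylates a ribosomal protein, had 0.63, and the ribosomal histidyl hydroxylases RIOX2 and RIOX1 had 0.54 and −0.15, the last turning positive at total count scaling. JMJD6, KDM8 and JMJD4 had 0.96, 0.70 and 0.50, and JMJD8, a protein of the endoplasmic reticulum, had −0.86 (−1.04 to −0.68).

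**Figure D4:**
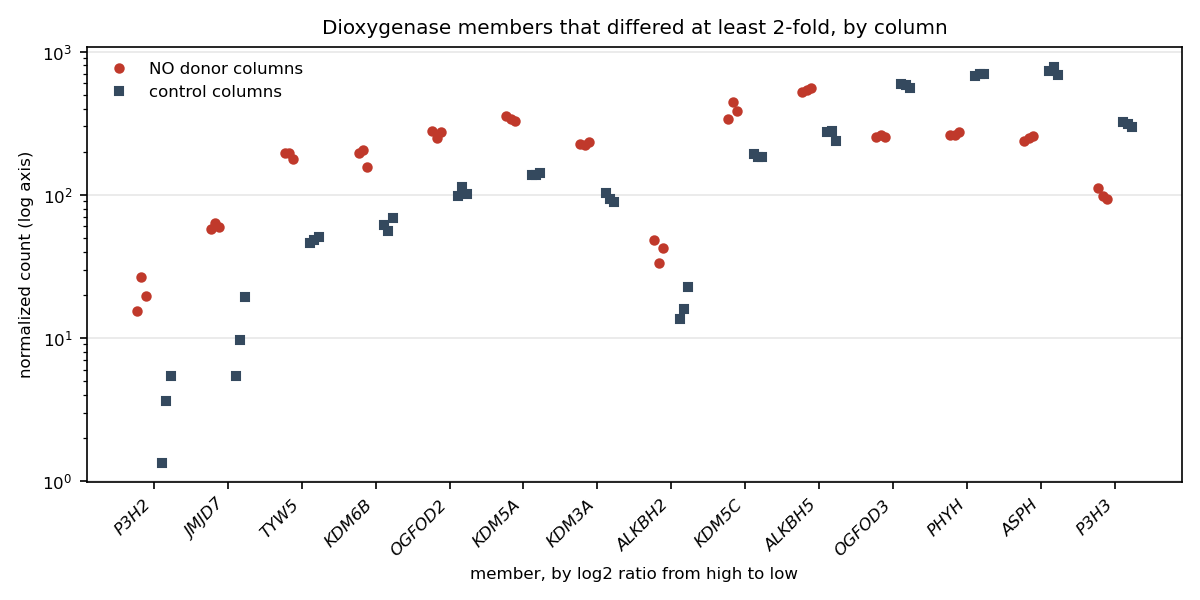
Normalized count (log axis) of the 14 members that differed by at least 2-fold, in the 3 NO donor columns (red circles, left of each pair) and the 3 control columns (dark squares, right). In each gene the columns of the libraries are separate, as in 73.0% of all measured genes. P3H2, JMJD7 and ALKBH2 have the lowest levels.

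Grouped by where the enzymes work, a grouping chosen after the values were seen, the members of the endoplasmic reticulum and those of chromatin differed in their middle values. The 13 endoplasmic reticulum members, which are the P4HA, P3H and PLOD genes with P4HTM, ASPH and JMJD8, had a median log2 ratio of −0.56, with 11 below 0. The 19 KDM2 to KDM7, JMJD1C, PHF and TET members had a median of 0.32, with 12 above 0. At total count scaling the medians were 0.04 and 0.91, with 6 of 13 and 2 of 19 below 0. The distance between the medians was the same at both scalings, since scaling adds the same amount to every gene.

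The genes that supply the cofactors of these enzymes went both ways for 2-oxoglutarate and iron and mostly lay above the control for ascorbate. Of all measured genes 14.5% passed the 2-fold rule upwards and 20.2% downwards at the authors' scaling, and 33.2% and 11.9% at total count scaling. Of 23 genes of 2-oxoglutarate metabolism 1 passed it upwards and 4 downwards, around a median of 0.25, or 0.84 at total count scaling. At total count scaling 7 of these were higher and 3 lower. Of the iron list 6 were then higher and 2 lower, and of the ascorbate list 5 were higher and 0 lower. PSAT1, a transaminase of serine synthesis that also yields 2-oxoglutarate, had 91 counts in the NO donor library, against 7947 in the control, and was 129-fold lower (105 to 160.2). IDH2, the mitochondrial isocitrate dehydrogenase that makes 2-oxoglutarate, and GLUD1, glutamate dehydrogenase, were 3.71-fold and 2.06-fold lower, and OGDH, which consumes 2-oxoglutarate, was 2.03-fold higher. Of 17 iron supply genes 2 passed upwards and 2 downwards, around a median of 0.11, or 0.71 at total count scaling, and SLC40A1, the iron exporter ferroportin, was 5.99-fold lower. Of 6 genes on the list for ascorbate, the reductant of the iron site, 2 passed upwards and 0 downwards. The list median was 0.87, or 1.46 at total count scaling. The 2 were SLC2A3, the glucose transporter already counted among the HIF target genes, at 12.4-fold, and TXNRD1, thioredoxin reductase, at 3.71-fold higher. SLC23A2, the ascorbate transporter, had a log2 ratio of 0.80 (0.62 to 0.98). GLO1, the only gene of the list below the control, is glyoxalase I and not a known ascorbate transporter or recycling enzyme. Its log2 ratio was −0.44, which became 0.16 at total count scaling.

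**Figure D5:**
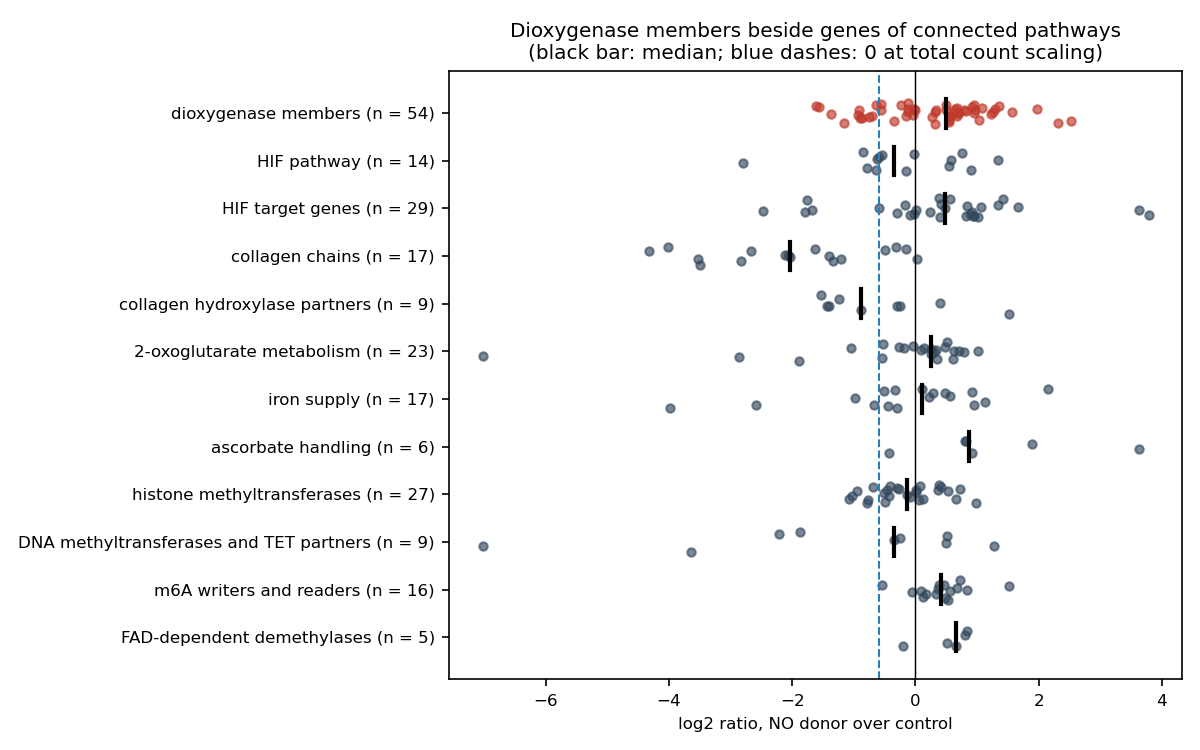
Log2 ratio, NO donor over control (x axis), of the 54 members (red) and of the genes of 11 connected lists without the members (dark), 1 point per gene, with medians as black bars and blue dashes at the place of 0 at total count scaling. The collagen chains lie far left at a median of −2.03, while the members lie at 0.49.

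Some single values carry a limit from the annotation. Of the 54 members 20 have a span that overlaps another annotated gene, 3 of them on the same strand and 18 on the opposite strand. Among the members called, KDM6B, ALKBH2, ASPH, OGFOD3 and KDM5A overlap a gene on the opposite strand, KDM5A by 7 bases. The same-strand cases are ALKBH3, JMJD1C and P4HTM. Whether the counting used strand is not given in the sources used here, so reads of such pairs may not be told apart.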

How the data were processed

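Droplet single-cell RNA libraries of valve interstitial cells were made, 1 per group, per the labels. Cell Ranger, Seurat 3.0, DESeq2 and the build Sscrofa11.1 appear in the submitters' processing notes, without a role for each. Cell filters and the treatment of doublets are not given in the sources used here. The authors deposited 1 table of 14804 genes. Its 3 columns per library and their mean hold a signal: counts over the authors' size factor of each column, per the file headers. Every value in the 6 columns (100%) was a whole number of reads, within 0.01, once multiplied by its factor, and those counts were used. The log2 fold change and its error, the Wald score, and the p-value and adjusted p-value are the authors' deposited DESeq2 results, per the file headers.

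A level is a library's summed count over its summed size factors (1.23, 1.23 and 1.22 for the NO donor, 0.743, 0.823 and 0.926 for the control). Ratios have no pseudocount, and a library at 0 is set to 3 counts. Intervals are exact 95% Clopper-Pearson intervals and cover counting error only, at totals of 21289316 NO donor and 21807024 control counts. The members' median variance between columns was 0.66 times the variance of counting for the NO donor and 0.82 times for the control. Genes with an adjusted p in the table, 13943, were taken as measured. No count test was made on the recovered counts, since each group is 1 library. Ratios and count recovery were tested on simulated data.

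Members and lists were chosen with earlier results of these data known. Given by column are members past 2-fold whose mean reaches the median of measured genes, and 16 members picked for their roles, of which EGLN2 and FTO were not analysed. From each list up to 4 genes at that mean with the widest ratios qualify for naming, and the text gives a part of them; HIF1A, EPAS1, ARNT, VHL, P4HB, SERPINH1, EZH2, KDM1B, RCOR2, GLO1 and SLC23A2 were chosen after their values were seen. Spans are 1-based and, like the sequences, from RefSeq Sscrofa11.1, where all 54 members matched by symbol. Tools were Python 3.11.15, SciPy 1.17.1, pysam 0.24.0 and edgeR 4.0.16 for TMM factors.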

Additional observations from a re-analysis of the deposited data

How the results depend on the processing

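Under total count scaling the members called were 28 higher and 1 lower, against 10 and 4 at the authors' scaling. The median log2 ratio was 1.09 against 0.49. Members whose columns lay apart and lower numbered 7 against 15. The 15 were 27.8% of the members, against 36.3% of all measured genes. At total count scaling the share over all measured genes was not computed, so the 7 cannot be set beside it. A size rule of 0.5 log2 units gave 26 members higher (48.1%, against 29.5% of all measured genes) and 13 lower (24.1%, against 32.0%). Among the connected list genes other than members, 15 were higher and 34 lower; total count scaling gave 59 higher and the 0.5 rule 50 higher and 53 lower. Without the members that overlap a protein-coding gene, an alternative chosen after seeing the data, 2 members were lower. These counts follow from the construction of each alternative. TMM scaling added 0.04 to every log2 ratio. At total count scaling 11 members changed sign, none of them called. Leaving out 1 column in turn changed the sign of 3 members near 0, KDM4B, P4HA3 and PLOD3, took ALKBH5 (0.96) and KDM5C (0.97) under the 2-fold rule, and brought ALKBH8, JMJD6, KDM6A, P4HTM, TET1 and TET3 past it; the largest move was 0.65 log2 units, for JMJD7, to 2.97. No paired analysis was possible because each group is 1 library and the columns carry no pairing. Genes with few counts, such as P3H2, allow only wide intervals.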
